A study of Mus musculus with 10 samples.

Results

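In 326 autosomal 1-kb windows of the mouse genome, dense CpGs carried DNA methylation in leukaemias without the Dnmt3b knockin. A window was taken where at least 60 CpG positions were listed in any of the 10 libraries and at least 3 of them had 10 or more reads in all 10. The members were chosen by their methylation level in the 5 WT libraries, whose mean had to reach 30%. They were 326 of 10890 CpG-dense windows, and 22907 windows of any CpG density could be tested. Each file lists the cytosines of a CpG on both strands as separate positions, so that 60 positions are fewer than 60 CpGs. The members held a median of 81 listed positions at 49 CpGs, and their levels rested on a median of 7 positions, which spanned a median of 81 bp.

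The libraries were made by reduced representation bisulfite sequencing, in which MspI-cut fragments of CpG-rich DNA are treated so that unmethylated cytosines are read as thymine. All DNA came from leukaemic mouse spleen. MLL-AF9, a fusion oncoprotein of acute leukaemia, was represented by c-kit+ cells in 3 WT and 3 Dnmt3b-knockin libraries. The cMyc-Bcl2 model, named for a growth-promoting transcription factor and a protein that blocks cell death, gave 2 WT and 2 knockin libraries of cells with no c-kit selection named. All windows and positions of results are in the mm9 build. The series describes the knockin as tetracycline-inducible, and Dnmt3b expression was not measured in these files. Its induction, the promoters that drive it and the oncogenes, and the mice's strain and age are unstated in the labels used here. Oncogene and cell selection therefore cannot be told apart. Whether replicates are separate mice is unstated too, and replicate numbers only name libraries in the order of their records. The p-values therefore reflect the variation among these 10 libraries alone, part of which may be technical. Libraries held 14446933 to 46762220 CpG read calls, and a member's level in a library rested on 30 to 23948 read calls with a median of 176. These calls are summed over positions, so a read that covers several positions is counted at each.

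Most CpG-dense DNA of mammals, which includes the CpG islands at gene starts, is kept free of methylation in normal cells. Known exceptions are imprinted control regions, where the copy from one parent is methylated, promoters of genes used in germ cells, the inactive X chromosome, and islands inside genes. Dnmt3b is one of the enzymes that add methyl groups to unmethylated CpGs, and gains of methylation at CpG islands are a known feature of leukaemia.

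Of the 10890 CpG-dense windows, 81.6% had a mean WT level under 5%. The members split into 142 windows at 30 to 50%, 51 at 50 to 70%, 44 at 70 to 90% and 89 at 90% or more. The 3 members just inside the threshold had WT means of 30.3% each. The 3 CpG-dense windows just outside lay at chr19:17912001-17913000 with 29.96%, chr12:40860001-40861000 with 29.9% and chr13:48357001-48358000 with 29.8%. The first 2 held the promoters of Pcsk5, a protease gene, and Scin, which codes for an actin-severing protein, and the last lay 1332 bp after the start of Id4, an inhibitor of helix-loop-helix factors.

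The promoters of 6 member windows are shown because their measured CpGs carry the patterns described here. Igf2r, the receptor that clears insulin-like growth factor 2, and Hymai, a non-coding RNA that shares its start region with the transcription factor gene Plagl1, are imprinted. Boll codes for an RNA-binding protein of germ cells. Foxa3 is a forkhead transcription factor gene whose window was a member although the promoter CpGs measured, 4 of 22, had low levels. Sema4b, a semaphorin gene, and Fhl2, which codes for a LIM-domain protein, differed widely between single libraries. The sequences are RefSeq promoters of GRCm38.p6, from 250 bases before to 50 bases after the start, written 5′ to 3′ on the strand of the gene. Capitals mark the CpGs that had 10 or more reads in all 10 libraries within the member window. The coordinates are chr17:12769657-12769956 on the minus strand for Igf2r, chr10:13090595-13090894 on the plus strand for Hymai and chr1:55362679-55362978 on the minus strand for Boll. They are chr7:19023490-19023789 on the minus strand for Foxa3, chr7:80186620-80186919 on the plus strand for Sema4b and chr1:43163912-43164211 on the minus strand for Fhl2.
Igf2r: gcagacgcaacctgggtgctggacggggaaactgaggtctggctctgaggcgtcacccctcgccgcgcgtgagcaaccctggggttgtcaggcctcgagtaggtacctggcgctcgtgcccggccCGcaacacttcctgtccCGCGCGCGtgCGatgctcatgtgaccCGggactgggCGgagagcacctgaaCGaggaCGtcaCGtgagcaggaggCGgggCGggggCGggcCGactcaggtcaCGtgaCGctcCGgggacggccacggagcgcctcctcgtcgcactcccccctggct
Hymai: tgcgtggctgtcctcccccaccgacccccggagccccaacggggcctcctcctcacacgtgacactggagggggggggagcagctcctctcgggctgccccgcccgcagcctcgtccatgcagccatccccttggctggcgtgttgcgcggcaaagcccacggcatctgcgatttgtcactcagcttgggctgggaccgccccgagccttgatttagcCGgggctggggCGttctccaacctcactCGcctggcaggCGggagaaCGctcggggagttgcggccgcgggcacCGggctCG
Boll: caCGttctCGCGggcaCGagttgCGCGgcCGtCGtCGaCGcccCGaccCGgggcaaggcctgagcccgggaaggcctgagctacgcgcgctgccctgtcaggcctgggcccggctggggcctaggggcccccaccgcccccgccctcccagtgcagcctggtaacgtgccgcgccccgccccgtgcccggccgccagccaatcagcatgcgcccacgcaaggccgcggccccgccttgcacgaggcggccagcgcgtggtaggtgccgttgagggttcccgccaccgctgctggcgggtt
Foxa3: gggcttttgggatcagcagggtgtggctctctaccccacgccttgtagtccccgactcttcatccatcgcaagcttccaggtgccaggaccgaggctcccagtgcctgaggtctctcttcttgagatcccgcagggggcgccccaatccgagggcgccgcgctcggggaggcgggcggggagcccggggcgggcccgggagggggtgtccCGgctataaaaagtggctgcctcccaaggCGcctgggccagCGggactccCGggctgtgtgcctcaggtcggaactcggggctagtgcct
Sema4b: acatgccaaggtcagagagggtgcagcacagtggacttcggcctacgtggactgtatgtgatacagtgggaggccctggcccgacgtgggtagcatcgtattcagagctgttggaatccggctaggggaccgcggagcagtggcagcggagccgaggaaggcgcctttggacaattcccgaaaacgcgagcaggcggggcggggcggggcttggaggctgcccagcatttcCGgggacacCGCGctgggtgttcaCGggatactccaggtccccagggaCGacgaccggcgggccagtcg
Fhl2: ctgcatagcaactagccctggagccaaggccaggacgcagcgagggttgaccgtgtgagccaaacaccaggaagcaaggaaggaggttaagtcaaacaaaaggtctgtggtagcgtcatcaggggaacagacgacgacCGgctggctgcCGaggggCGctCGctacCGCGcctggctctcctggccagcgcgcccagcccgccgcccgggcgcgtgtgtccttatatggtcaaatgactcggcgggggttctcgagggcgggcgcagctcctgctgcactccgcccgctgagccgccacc

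The 18 CpGs in capitals in the Igf2r promoter lay between -125 and 5 bp from the start, and their mean WT levels ranged from 23.4 to 39.5%. The mean knockin levels of the same CpGs ranged from 27.2 to 38.2%. The 7 CpGs of Hymai had mean WT levels of 31.2 to 42.1% and mean knockin levels of 19.8 to 39.3%. The 12 CpGs of Boll, all at the far end from the start, ranged from 49.2 to 100% in WT and from 75.5 to 98.9% in the knockin. The 4 CpGs of Foxa3 were at 2.13 to 9.53% in WT and at 3.90 to 11.1% in the knockin. In the same Foxa3 window the 12 positions outside the promoter had a mean WT level of 45.6%. The 5 CpGs of Sema4b moved together, at 37.8 to 42.7% in WT and at 72.2 to 87.1% in the knockin. The 6 CpGs of Fhl2 were at 31.0 to 51.3% in WT and at 30.9 to 44.9% in the knockin, but these means pool unlike models. Together these CpGs were at 18.3, 79.2 and 92.4% in MLL-AF9 WT and at 35.7, 53.9 and 52.7% in MLL-AF9 knockin. All cMyc-Bcl2 libraries were at 13.3 to 20.1%, so the Fhl2 window reached the WT mean of 30% through MLL-AF9 WT alone.

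**Figure D1:**
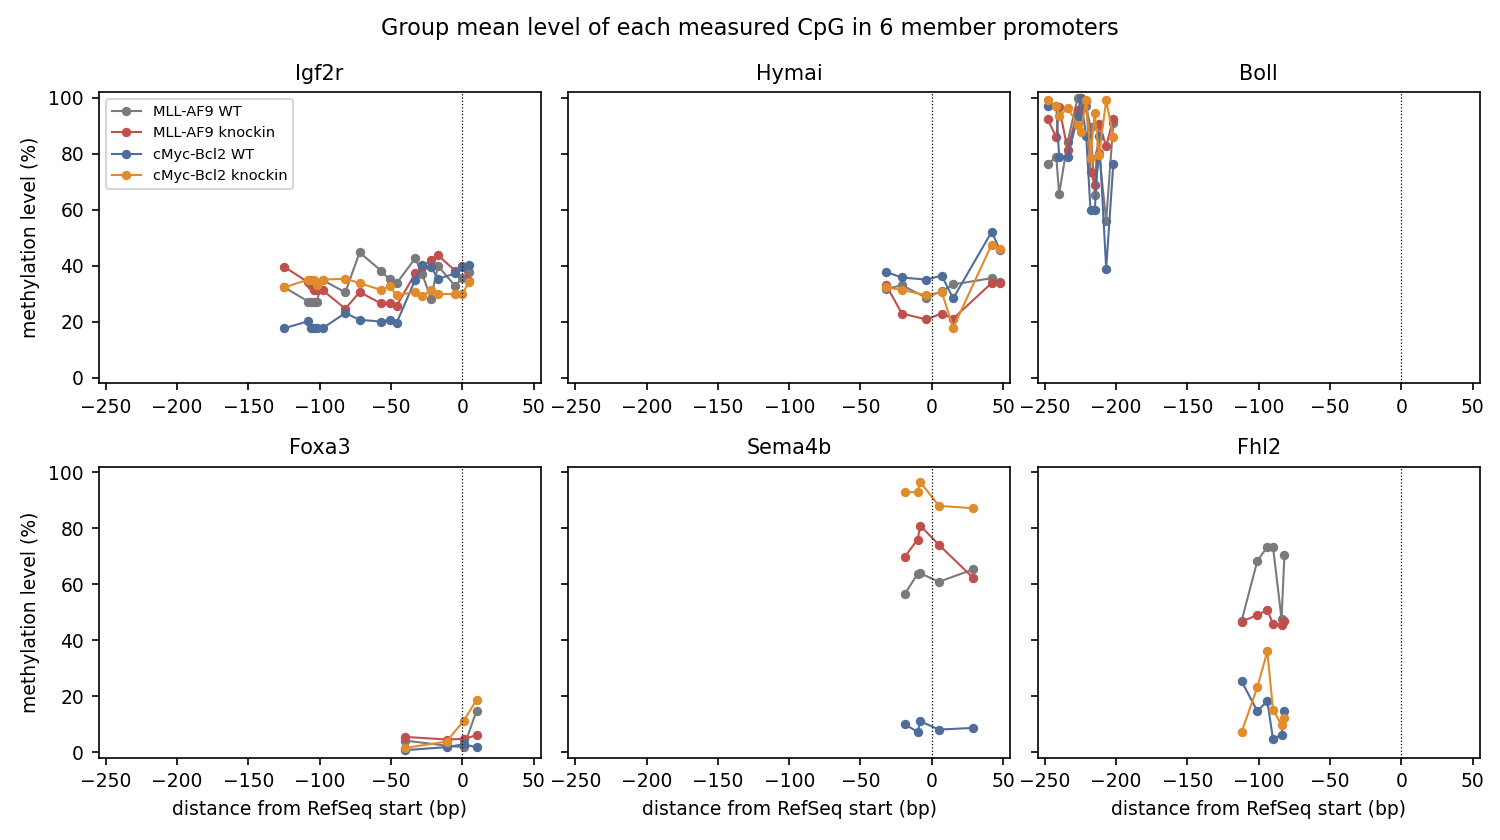
Group mean methylation level (%) of each CpG measured in all 10 libraries, against its distance from the RefSeq start (bp), in 6 member promoters; each point is the mean over the 2 or 3 libraries of 1 group. Igf2r and Hymai lie at intermediate levels in all groups, Foxa3 is low in all groups, and Sema4b is low only in the cMyc-Bcl2 WT group mean.

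Few members lay at a placed gene start. RefSeq promoters were matched to the files by the spacing of their CpGs, and 10493 genes were placed with at least 1 start. Outside chromosome 18, for which no promoters were used here, 19.6% of members and 57.8% of the other CpG-dense windows overlapped a placed promoter. The used positions of members lay a median of 12.4 kb from the nearest placed start, against 0.328 kb for the other CpG-dense windows. Starts that were not placed could lie nearer. Of the 62 members with a promoter, 24 had at least 3 used positions inside it. In 23 of these the mean WT level at the positions inside the promoter was 30% or more. Foxa3 was the exception, with 3.49% at the positions inside its promoter. The same positions entered the WT levels that chose the members, so this count is partly set by the choice. The placed promoters of both kinds of window had the same median of 27 CpGs in 300 bases. The E-box CACGTG, searched on both strands, stood in 13.2% of 68 promoters in members and in 10.9% of 7339 promoters in other CpG-dense windows. The GC box GGGCGG or its reverse complement stood in 72.1% and 79.4% of them, and CCAAT, likewise searched on both strands, in 41.2% and 33.5%. A WT mean of 90% or more was found in 9.68% of the members with a promoter and in 31.4% of the 264 members without a placed one, with no test since WT levels chose the members.

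Among the gene lists, imprinted genes had 4 members in 9 CpG-dense windows with a placed promoter, Hox genes 3 in 11, and germline genes 1 in 5. All promoters together had 62 members in 6000 such windows, or 1.03%. Developmental transcription factors outside the Hox clusters had 0 members in 63 windows, regulators of blood formation 0 in 31, and protocadherins 0 in 2. These lists were made with earlier results of these data known, so the counts describe the lists and are no test. Members also held placed promoters of genes on none of these lists, among them Boll, Foxa3, Tdrd5, Rbm46 and Batf3. A count of 0 therefore holds for the listed genes only.

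The imprinted members kept intermediate levels in every group. The window of Plagl1 and Hymai, at chr10:12810001-12811000, was measured at 39 positions. Its level was 48.1, 40.0 and 38.3% in MLL-AF9 WT, 44.2, 41.0 and 42.0% in MLL-AF9 knockin, 45.3 and 45.1% in cMyc-Bcl2 WT and 50.2 and 44.5% in cMyc-Bcl2 knockin. The 10 values ran from 38.3 to 50.2%, and the groups overlapped. The Igf2r window, at chr17:12962001-12963000, had 24.2, 53.2 and 26.5% in MLL-AF9 WT, 27.8, 39.5 and 34.3% in MLL-AF9 knockin, 25.7 and 31.1% in cMyc-Bcl2 WT and 37.4 and 26.6% in cMyc-Bcl2 knockin. Replicate 2 of MLL-AF9 WT stood above the other 9 libraries there, and the groups overlapped. Zrsr1, an imprinted splicing-factor gene inside Commd1, had its window at 46.9 to 53.0% in MLL-AF9 WT and 39.6 to 43.4% in MLL-AF9 knockin. In cMyc-Bcl2 that window was at 54.6 and 62.5% in WT and at 52.4 and 57.0% in the knockin. The window at a placed start of Gnas, which codes for a G-protein subunit and is imprinted, ranged from 22.2 to 46.3% over the 10 libraries. None of the 4 windows passed the test between knockin groups, with adjusted p of 0.203 for Plagl1 and Hymai, 0.771 for Igf2r, 0.0894 for Zrsr1 and 0.824 for Gnas in the limma-moderated fit described below.

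The Hox members spread over a wide range. Hoxa5 and Hoxa6 are neighbouring homeobox genes of the HOXA cluster, and Hoxd10 lies in the HOXD cluster. The Hoxa5 window had 62.2, 97.8 and 99.4% in MLL-AF9 WT and 97.3, 98.1 and 81.8% in MLL-AF9 knockin, none of it measured inside the promoter. Its cMyc-Bcl2 levels were 84.4 and 97.1% in WT and 95.8 and 40.5% in the knockin. The Hoxa6 window differed between the same cMyc-Bcl2 knockin libraries, at 94.2% in replicate 1 and 32.1% in replicate 2. The Hoxd10 window, centred -800 bp from the placed start, was at 31.1 and 31.3% in cMyc-Bcl2 WT and at 82.3 and 81.2% in cMyc-Bcl2 knockin, with no overlap. In MLL-AF9 the same window had 43.4, 52.0 and 31.0% in WT and 69.9, 44.1 and 54.7% in the knockin, with overlap. Of the germline list, the window of Slc25a31, which codes for the ADP/ATP carrier of male germ cells, was at 93.0 to 99.4% in all 10 libraries. The Boll window, chosen after its values were seen, ranged from 75.2 to 94.1%.

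The mean level over the 326 members was 63.2, 70.03 and 60.3% in the 3 MLL-AF9 WT libraries and 72.4, 68.3 and 66.2% in the 3 MLL-AF9 knockin libraries. It was 61.2 and 57.5% in the cMyc-Bcl2 WT libraries and 74.3 and 71.7% in the cMyc-Bcl2 knockin libraries. The cMyc-Bcl2 groups did not overlap, while replicate 2 of MLL-AF9 WT was above 2 of the 3 MLL-AF9 knockin libraries. The group means were 64.5% ± 5.003 (SD, n = 3) in MLL-AF9 WT and 69.0% ± 3.13 (SD, n = 3) in MLL-AF9 knockin, a difference of 4.47 points. They were 59.3% ± 2.66 (SD, n = 2) in cMyc-Bcl2 WT and 73.0% ± 1.84 (SD, n = 2) in cMyc-Bcl2 knockin, a difference of 13.6 points. The WT values chose the members, so knockin minus WT is a description here, with no test. When CpG-dense windows were instead chosen on the other model's WT libraries alone, 302 windows gave a difference of 5.92 points in MLL-AF9, and for cMyc-Bcl2 347 windows gave 14.3 points. Of these, 268 and 308 windows were members. Counted by single positions, 28.6% of the 2828 used positions were above 90% in cMyc-Bcl2 WT and 41.6% in cMyc-Bcl2 knockin. In MLL-AF9 these shares were 32.2% and 36.1%.

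**Figure D2:**
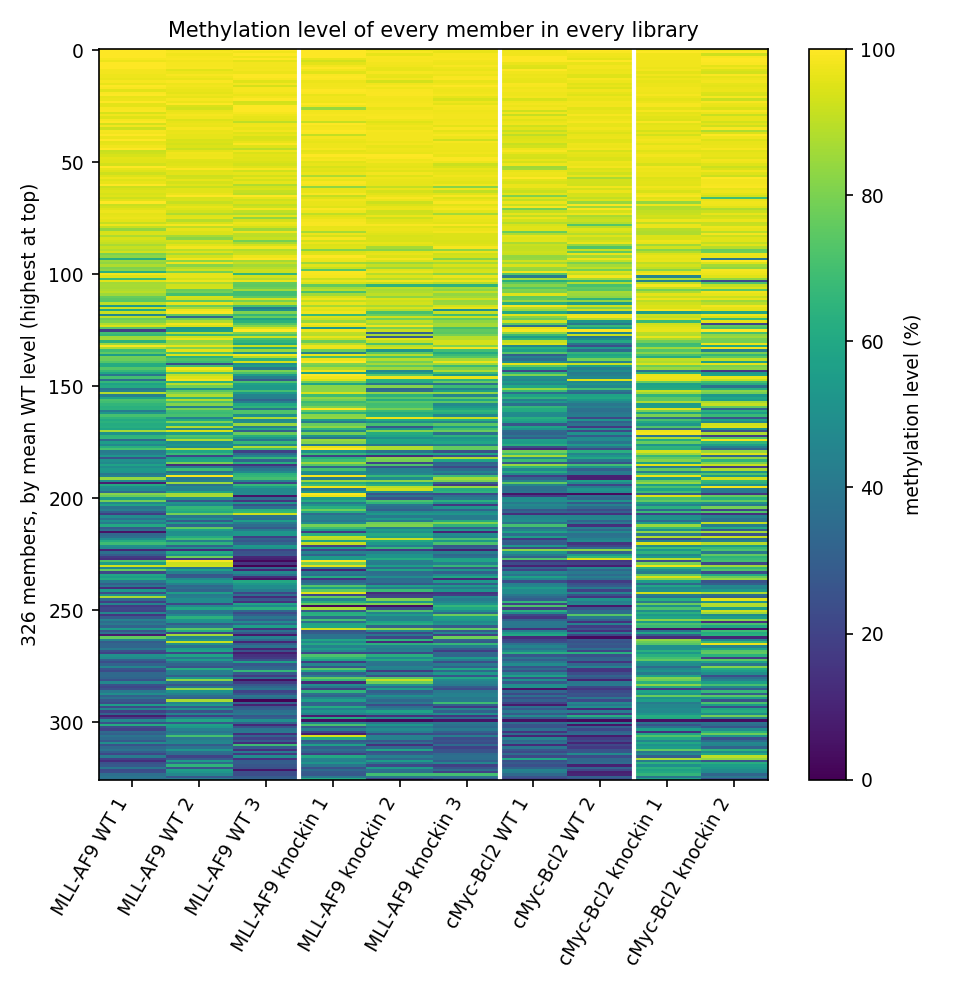
Methylation level (%) of the 326 members (rows, ordered by mean WT level) in the 10 libraries (columns, white lines between groups). The upper rows are near full methylation in every library, while the lower rows differ between libraries of 1 group and are brighter in both cMyc-Bcl2 knockin libraries.

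The difference in cMyc-Bcl2 is given by class of mean WT level. The classes were cut on values that include the cMyc-Bcl2 WT levels, and levels stop at 100%, so the choice itself sets part of the fall of the difference from class to class. In the 142 members at 30 to 50% it was 21.8 points, from 34.4% ± 3.71 to 56.2% ± 1.38 (SD, n = 2 each). It was 18.7 points in the 51 members at 50 to 70%, 7.25 in the 44 at 70 to 90% and 0.862 in the 89 at 90% or more. In MLL-AF9 the differences of the same classes were 5.86, 5.63, 5.57 and 1.06 points. The 6806 less CpG-dense windows at 30% or more in WT were taken by the same WT classes. Their lowest class held 621 windows, with differences of 14.7 points for MLL-AF9 and, for cMyc-Bcl2, 13.01 points. Over all classes the difference of the less dense windows was 5.20 points for MLL-AF9, and for cMyc-Bcl2 it was 2.41 points. Members with a placed promoter had a cMyc-Bcl2 difference of 18.04 points and those without one 12.6 points, while in MLL-AF9 the differences were 4.48 and 4.47 points. These sets differ in their mix of WT levels. Of the 62 with a promoter, 36 were at 30 to 50% and 6 at 90% or more, against 106 and 83 of the 264 without one.

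**Figure D3:**
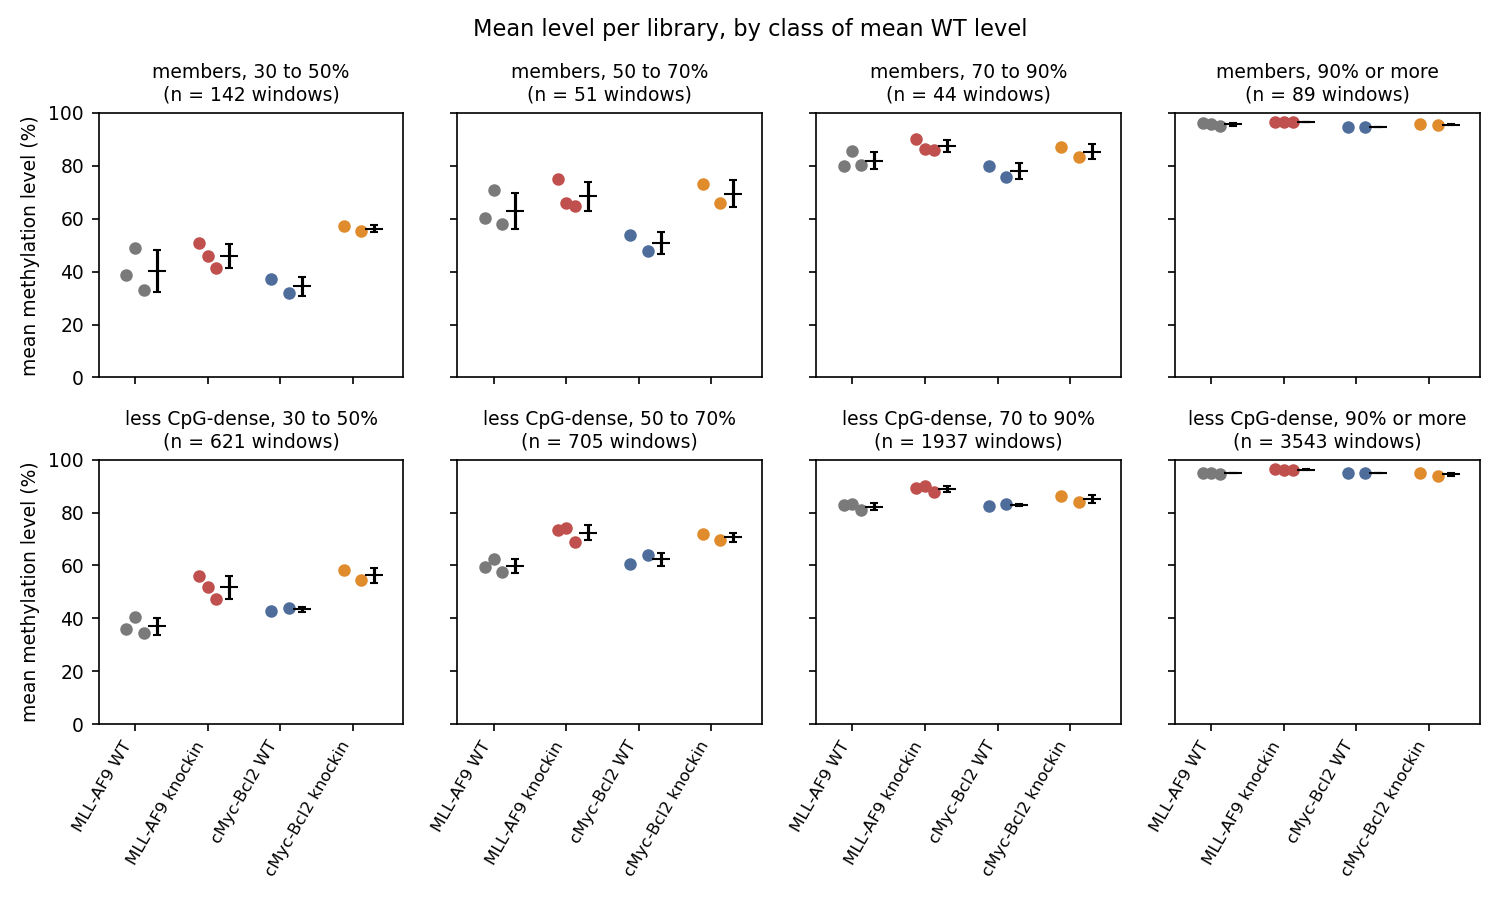
Mean methylation level (%) per library of members (upper row) and less CpG-dense windows (lower row), in 4 classes of mean WT level; points are libraries, and horizontal marks with bars are group means ± SD. In members at 30 to 50% the cMyc-Bcl2 knockin libraries lie at 57.2 and 55.2%, above the 41.5 to 50.7% of the MLL-AF9 knockin libraries.

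Counted window by window, 126 of 326 members (38.7%) were at least 10 points higher in cMyc-Bcl2 knockin than in WT with no overlap of libraries, and 6 (1.84%) were lower by this rule. Over all 22907 windows these shares were 12.6% and 1.75%. In MLL-AF9, 28 members (8.59%) were higher and 3 (0.920%) were lower by the same rule, against 6.29% and 0.188% of all windows. The quasi-binomial fit with limma-moderated dispersion called no window in cMyc-Bcl2 (0% of all windows in either direction), although 103 members and 3221 windows had an unadjusted p under 0.05. limma on M-values also called 0 there. With 2 libraries against 2 the fit had too little power to make calls, so the 0 does not bear on whether levels differed. In MLL-AF9 the fit called 1 member higher and 1 lower, where 0.0262% and 0.00437% of all windows were called. Neither member was called by limma on M-values or without any 1 of the 6 MLL-AF9 libraries. Over both models together it called 20 members higher and 1 lower, against 3.52% and 0.0175% of all windows. The member called lower was chr7:88020001-88021000. The 21 calls fell to 2 without replicate 2 of cMyc-Bcl2 WT, to 10 without replicate 1 of cMyc-Bcl2 knockin and to 1 by limma on M-values. They fell to 13 without replicate 2 of cMyc-Bcl2 knockin, replicate 3 of MLL-AF9 WT, or replicate 1 or 2 of MLL-AF9 knockin. Between the WT groups it called 1 member higher in cMyc-Bcl2, chr17:45654001-45655000, and 3 lower, against 0.166% and 0.0698% of all windows. The 3 were chr6:67485001-67486000, chr7:88020001-88021000 and the window after the Hic1 start. Nothing is read from these shares, since the contrasts used the WT values that chose the members.

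The 2 members called in MLL-AF9 had opposite directions and were named after their values were seen. At chr5:111715001-111716000 the level was 14.1, 15.1 and 9.18% in MLL-AF9 WT and 53.6, 62.1 and 58.1% in MLL-AF9 knockin. The 4 cMyc-Bcl2 libraries, WT and knockin, were all higher there, at 67.7 to 94.1%. At chr6:67485001-67486000 the level was 47.0, 59.6 and 50% in MLL-AF9 WT and 2.28 to 5.80% in MLL-AF9 knockin. The 4 cMyc-Bcl2 libraries were at 2.12 to 4.26% there, so that the 3 MLL-AF9 WT libraries stood apart from the other 7. With cMyc-Bcl2 WT that low, the window reached the WT mean of 30% through MLL-AF9 WT alone. The choice of members thus required high MLL-AF9 WT levels at this window. Nothing is therefore read from the call or from the separation of these libraries. Neither window had a placed start within 10 kb.

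In 23 members (7.06%) every knockin library was above every WT library of its model in both models, a pattern found in 5.91% of all windows tested. The member with the highest smaller-of-both difference lay at the start of Pnma1, a neuronal antigen gene, at chr12:85489001-85490000. Measured at 14 positions around 334 bp after the start and outside the placed promoter, its level was 50.4, 46.1 and 55.9% in MLL-AF9 WT against 97.3, 89.2 and 83.6% in the knockin, and 36.6 and 41.3% in cMyc-Bcl2 WT against 71.1 and 97.7% in the knockin. The window 4778 bp after the start of Mex3a, an RNA-binding protein gene, reached 96.5 to 97.9% in all 5 knockin libraries. In WT it had 69.7, 94.6 and 43.0% in MLL-AF9 and 49.2 and 47.6% in cMyc-Bcl2. The window chr8:73904001-73905000, near Ocel1, had 30.4 to 50% in MLL-AF9 WT and 60.3 to 66.7% in MLL-AF9 knockin. In cMyc-Bcl2 it had 37.5 and 28.6% in WT and 73.5 and 97.1% in the knockin. At chr11:115184001-115185000 the level was 32.3 to 53.5% in MLL-AF9 WT and 59.9 to 75.9% in the knockin, and 23.9 and 26.5% in cMyc-Bcl2 WT and 80.6 and 37.1% in the knockin. In 1 member (0.307%) every knockin library was below every WT library of its model in both models, against 0.301% of all windows tested. This was the shared promoter window of Tmem267 and 3110070M22Rik. It had 88.0 to 89.6% in MLL-AF9 WT, 81.5 to 83.1% in MLL-AF9 knockin, 91.1 and 91.4% in cMyc-Bcl2 WT and 81.9 and 77.1% in cMyc-Bcl2 knockin. Its depth per position was 3.41 times the median of CpG-dense windows, and the part of repeated sequence in this value was not tested.

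The knockin levels did not enter the choice of members, but the WT levels of both models did. A window could reach the WT mean of 30% through 1 model alone. Of the windows named below, chr17:45654001-45655000 and chr16:78377001-78378000 did so through cMyc-Bcl2, and chr17:35071001-35072000 did so through MLL-AF9. Nothing is read from the calls of these windows. How far the choice shapes the comparison of the knockin groups was not tested. The question was whether the same dense windows were methylated to the same level in both kinds of knockin leukaemia. The mean over members was 73.0% in cMyc-Bcl2 knockin and 69.0% in MLL-AF9 knockin, a difference of 3.98 points against SDs over libraries of 1.84 and 3.13 points. In the members at 30 to 50% in WT the difference was 10.2 points. At 50 to 70% it was 0.870 points, at 70 to 90% it was -2.24 points and at 90% or more it was -1.11 points. The quasi-binomial fit of the 5 knockin libraries, with limma-moderated dispersion and Benjamini-Hochberg adjustment over all 22907 windows, called 12 members higher and 5 lower in cMyc-Bcl2 at an adjusted p under 0.05 and at least 10 points. These are 3.68% and 1.53% of the members, against 1.75% and 0.716% of all windows. In the less CpG-dense windows at 30% or more in WT the shares were 1.1% and 1.65%, so the lower share was not particular to members. Without regard to the test, 60 members (18.4%) were at least 10 points higher in cMyc-Bcl2 knockin with no overlap and 23 (7.06%) were lower, against 8.23% and 4.13% of all windows. By this rule the less CpG-dense windows at 30% or more had 6.26% higher and 10.5% lower. All these calls needed the 3 MLL-AF9 knockin libraries: without any 1 of them, 0 windows were called, with 70 to 92 members at an unadjusted p under 0.05. limma on M-values called 6 members, all among the 17.

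The members higher in cMyc-Bcl2 knockin were led by chr11:87577001-87578000, with 81.8 and 85.0% against 14.8, 35.4 and 10.6% in MLL-AF9 knockin (adjusted p = 0.0315 in the limma-moderated fit). In WT that window was at 61.1, 48.0 and 4.58% in MLL-AF9 and at 46.2 and 37.4% in cMyc-Bcl2. Next came the window centred -394 bp from the start of Btg3, an antiproliferative gene, with 61.7 and 78.3% against 8.33, 13.5 and 16.2% (adjusted p = 0.0332 in the same fit). Here the WT leukaemias differed in the same way, with 47.1 and 62.4% in cMyc-Bcl2 against 7.84, 19.5 and 27.0% in MLL-AF9. This window, chr16:78377001-78378000, thus became a member through cMyc-Bcl2 WT alone, and nothing is read from its call. The windows chr11:59953001-59954000, chr7:13629001-13630000 and chr17:45654001-45655000 followed, with differences of 51.5, 49.9 and 46.8 points. At the last of them cMyc-Bcl2 had 82.6 and 82.3% in WT and 53.2 and 72.0% in the knockin, while MLL-AF9 was at 8.78 to 21.4% in all 6 libraries.

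The largest difference in the other direction was at chr17:35071001-35072000, 3141 bp after the start of Neu1, a lysosomal sialidase gene. It had 6.22 and 5.52% in cMyc-Bcl2 knockin and 92.7, 82.7 and 75.3% in MLL-AF9 knockin, a difference of -77.7 points (adjusted p = 0.0103 in the limma-moderated fit). With cMyc-Bcl2 WT at 14.0 and 26.5%, this window became a member through MLL-AF9 WT alone, and nothing is read from its call. The window chr7:88020001-88021000 was at 44.7 and 22.5% in cMyc-Bcl2 knockin and at 96.9, 97.8 and 97.1% in MLL-AF9 knockin (adjusted p = 0.0217 in the same fit). MLL-AF9 WT was as high, at 95.5 to 97.4%, and cMyc-Bcl2 WT was between, at 62.8 and 66.4%. The window 1270 bp after the start of Mocs3, a gene of molybdenum cofactor synthesis, differed by -59.5 points and chr5:144016001-144017000 by -54.1 points. The fifth, chr10:126763001-126764000, differed by only -10.04 points, from 98.3% ± 1.12 (SD, n = 3) to 88.3% ± 0.418 (SD, n = 2).

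**Figure D4:**
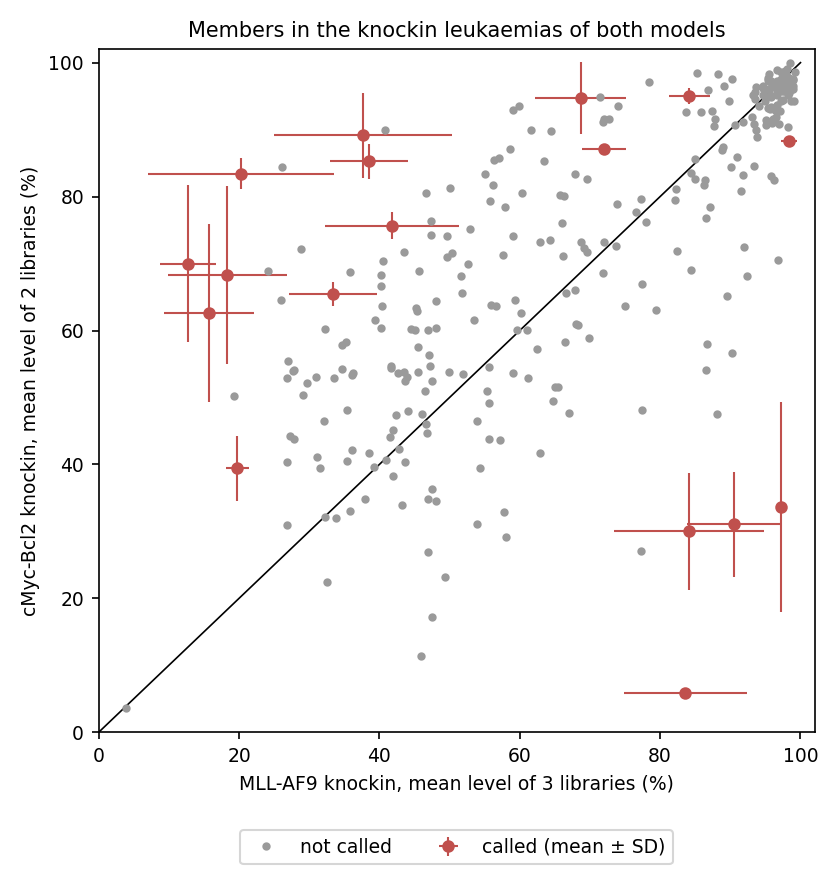
Mean methylation level (%) of each of the 326 members in MLL-AF9 knockin (x axis, 3 libraries) and cMyc-Bcl2 knockin (y axis, 2 libraries), with the line of equality; red points with SD bars are the 17 called members. Of these, 12 lie above the line and 5 below it, and the fully methylated members crowd the upper right corner.

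Libraries of a group differed widely in members at intermediate levels, as they did in less CpG-dense windows of the same WT level. SDs within a group are over 3 libraries in MLL-AF9 and 2 in cMyc-Bcl2, so they do not compare the models. The median SD of a member was 9.42 points within MLL-AF9 WT, 5.97 within MLL-AF9 knockin, 5.97 within cMyc-Bcl2 WT and 4.36 within cMyc-Bcl2 knockin. Among members at 30 to 50% in WT these medians were 13.8, 10.97, 8.76 and 8.24 points, and among less dense windows of that class they were 12.4, 9.98, 10.7 and 8.99 points. The median SD over the 5 WT libraries in that class was 14.2 points in members and 17.7 points in less dense windows. The range over the WT libraries of a group reached 30 points in 100 members (30.7%) and in 13.4% of the 6806 less CpG-dense windows. These sets differ in their mix of WT levels, with 3543 of the 6806 and 89 of the 326 members at 90% or more. In the Sema4b promoter window the 3 MLL-AF9 WT libraries had 92.9, 93.3 and 0%. The last had 0 of 60 read calls over 5 positions, which as independent calls would allow a level of up to 5%. The knockin libraries had 95.5, 56.2 and 66.4% in MLL-AF9 and 97.3 and 85.7% in cMyc-Bcl2, against 9.57 and 8.44% in cMyc-Bcl2 WT. The window with the largest range, chr17:84496001-84497000, had 72.4, 99.2 and 2.27% in MLL-AF9 WT, and chr14:55051001-55052000 had 76.9, 86.9 and 5.52%. At chr17:56564001-56565000 the same libraries had 27.1, 86.9 and 0%. The last had 0 of 63 read calls over 4 positions, which as independent calls would allow up to 4.76%. In these 4 windows replicate 3 of MLL-AF9 WT was the lowest and replicate 2 the highest. In both windows with a level of 0% the positions lay close together, and a read that covers several is counted at each. The limits are therefore too low, and they cover counting error only.

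Reads of both strands gave like levels. At 340 CpGs of 132 members where both strands were covered, the mean difference between strands was -1.17 to 1.38 points over the 10 libraries. The median absolute difference was 4.86 to 8.33 points.

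Most members had no other member within 5 kb, but most also had no other CpG-dense window tested that near. Such a window lay within 5 kb of 110 members (33.7%) and of 39.1% of the other CpG-dense windows. A member without one could have no member that near. Within 5 kb of another member lay 24 of 326 members (7.36%), and 1.17% of the other CpG-dense windows had a member that near. At 100 kb these shares were 19.3% and 8.32%. Joined at 5 kb, the members formed 302 single windows and 12 pairs, and at 100 kb 263 single windows, 27 pairs and 3 runs of 3. The distance between members is a description of the chosen windows, with no test. CpG-dense windows within 5 kb of a member had a median WT level of 3.80%, with 65.4% of the 156 pairs under 10% and 15.4% at 30% or more. Of all CpG-dense windows, 81.6% were under 5% and a further 7.84% between 5 and 10%, and 326 of 10890 were at 30% or more. Less CpG-dense windows within 5 kb had a median of 49.96%, with 60.9% of the 110 pairs at 30% or more. Such levels were common away from members too. Of the 22907 windows tested, 10890 were CpG-dense and 6806 were less CpG-dense windows at 30% or more. By chromosome the members made up from 0.860% of the CpG-dense windows on chromosome 16, with 3 members, to 5.56% on chromosome 7, with 40.

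**Figure D5:**
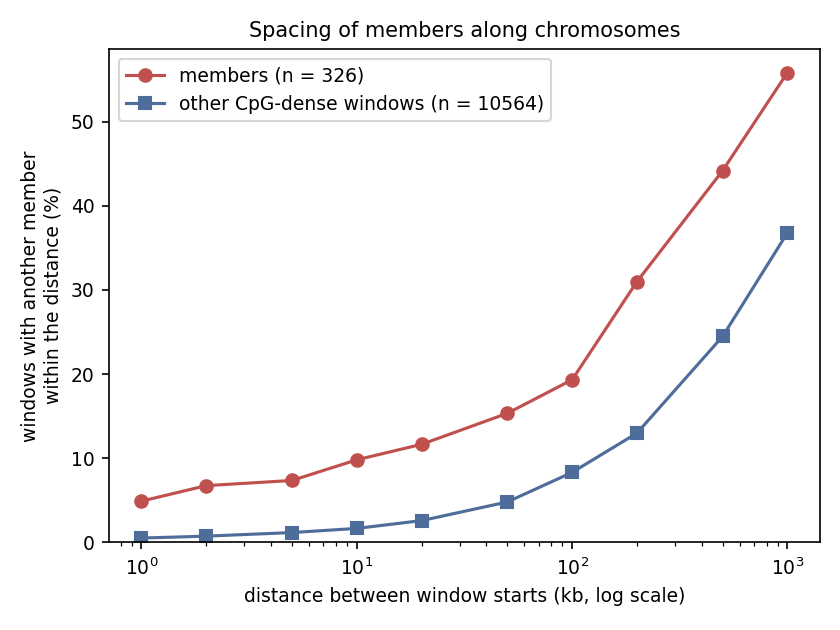
Share of windows (%) with another member within a given distance (kb, log scale) between window starts, for the 326 members and the 10564 other CpG-dense windows. At 5 kb the members stand at 7.36% and the other windows at 1.17%, and at 1000 kb at 55.8% and 36.8%.

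The 3 runs of 3 members were at Gnas, in the HOXA cluster and on chromosome 11. The run at chr2:174124001-174154000 spanned 30 kb. It began with windows 14896 and 15642 bp after a placed Gnas start and ended at another placed Gnas start. Its mean level was 45.5% in MLL-AF9 WT, 43.7% in MLL-AF9 knockin, 48.2% in cMyc-Bcl2 WT and 46.6% in cMyc-Bcl2 knockin. The run at chr6:52114001-52159000 spanned 45 kb with Hoxa5 and Hoxa6, and its means were 67.3, 75.8, 53.7 and 60.7% in the same order. In its first window replicate 1 of cMyc-Bcl2 knockin had 80.1% and replicate 2 had 21.9%. The run at chr11:120048001-120134000 had means of 67.0, 73.8, 82.1 and 88.6%. Windows of a pair did not always share a level. At Hic1, the gene of a transcriptional repressor, the window at the start had 43.4 to 76.2% in MLL-AF9 WT and 2.96 and 12.4% in cMyc-Bcl2 WT. The window 1920 bp after that start had 91.1 to 99.2% and 24.4 and 46.6%. In the pair near Zfp784, a zinc-finger gene, both windows were at 93.9 to 100% in all 10 libraries.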

How the data were processed

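Per the labels, MspI fragments with inserts between 40 and 280 bp were bisulfite-treated and sequenced. The submitters' processing notes name CASAVA, Trim Galore 0.2.2, Bismark 0.7.4, methylKit and the mm9 build. Settings and filters: not given in the sources used here. The authors deposited, per CpG cytosine and strand, a pair of raw read counts, methylated and unmethylated, with no normalization. The order of the pair was taken from mitochondrial CpGs, at which 0.910 to 3.20% of calls were in the first number.

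Reads of positions with 10 or more reads in all 10 libraries were pooled per 1-kb window, and a level is methylated over total reads. A read counts once for each such position that it covers. Each window was fitted with a quasi-binomial model (R 4.3.3), its dispersion moderated with limma 3.58.1 and held at 1 or above. P-values were adjusted by Benjamini-Hochberg over 22907 windows, and windows were called where that value was under 0.05 and the groups differed by 10 points or more. The fit was tested on simulated data. Named windows were taken by rank: the nearest to the threshold, the called windows with the largest differences between knockin groups, those shifted the same or opposite ways in both models, those with the largest WT range, and those of the gene lists. The members and lists were chosen with earlier results of these data known.

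RefSeq promoters of GRCm38.p6, 250 bases before to 50 after the start, were placed on the files by CpG spacing within the promoter, without converting coordinates. Of 14281 promoters with 10 or more CpGs, 11950 had a single place, and 11946 of these lay on their own chromosome. Alternatives are given with the closing observations; joining strands, and leaving out the 3 members with over 3 times the median depth, were chosen after seeing the data. Fragments that share a PCR origin cannot be recognised, so read counts are not counts of independent molecules.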

Additional observations from a re-analysis of the deposited data

Results flagged for a closer look

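In 2 members every knockin library lay on one side of the WT libraries in MLL-AF9 and on the other side in cMyc-Bcl2. Differences were at least 10 points in both models, and the same pattern was found in 92 of all 22907 windows tested. The difference between models was not tested. WT levels chose the members, so both are descriptions.

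The window chr12:24485001-24486000, at the start of the predicted gene Gm38699, was measured at 5 positions. It had 66.0, 68.6 and 52.7% in MLL-AF9 WT and 38.6, 49.7 and 51.9% in MLL-AF9 knockin, a difference of -15.7 points. In cMyc-Bcl2 it had 30 and 47.5% in WT and 87.9 and 73.1% in the knockin, a difference of 41.8 points.

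The window chr17:35071001-35072000, 3141 bp after the start of Neu1, was measured at 13 positions. It had 54.8, 74.5 and 14.6% in MLL-AF9 WT and 92.7, 82.7 and 75.3% in MLL-AF9 knockin, a difference of 35.6 points. In cMyc-Bcl2 it had 14.0 and 26.5% in WT and 6.22 and 5.52% in the knockin, a difference of -14.3 points.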

How the results depend on the processing

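The number of members depended on the coverage rule: 15 windows qualified with 20 reads per position and 569 with 5 reads, against 326. It was 138 with the strands of a CpG joined and 194 with positions listed in at least 2 files. Leaving out each library in turn gave 263 to 393. The share of members within 5 kb of another was 4.44% with windows shifted by 500 bp, 0% with 20 reads and 13.7% with 5 reads, and 7.29 to 10.2% with a library left out. The knockin minus WT difference over members kept its direction in all 17 alternatives of each model, from 1.57 to 6.41 points in MLL-AF9 and from 11.7 to 15.01 points in cMyc-Bcl2, and both ranges are those of leaving out each library. Between the knockin groups, limma on M-values called 167 windows and 6 members, the 4 groups in 1 fit 1085 and 27, 20 reads 3 and 0, 5 reads 1248 and 29, and joined strands 1026 and 7, against 565 and 17. Leaving out a library gave 0 to 1022 windows and 0 to 25 members. For MLL-AF9 knockin against WT, limma on M-values called 0 windows and 0 members and joined strands 11 and 0, against 7 and 2, and leaving out each library gave 0 and 0. Over both models limma on M-values called 24 windows and 1 member and joined strands 10 members, against 811 and 21, and leaving out a library gave 71 to 976 windows and 2 to 31 members. cMyc-Bcl2 knockin against WT called 0 windows, also with limma on M-values, joined strands or a library left out, but this design had too little power to make calls, so the 0 says nothing about stability. None of the 15 named windows tested changed direction. Counts of members with joined strands are over the 138 windows that then qualify. The cause of these changes was not tested, except that 20 reads left none of the 17 called members testable. Leaving out a cMyc-Bcl2 library left 1 in that group, which was assumed to vary like the other libraries. No paired analysis was possible because the labels give no replicate numbers; those used here follow the order of the records and pair nothing.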
